A study of Mus musculus with 4 samples.

Results

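Nuclear factor I genes (Nfia, Nfib, Nfic, Nfix), the chromatin genes Hmga1 and Hmga2, and the RNA-binding protein genes Lin28a, Igf2bp1, Igf2bp2 and Igf2bp3 were followed in mouse neurospheres with and without the transcription factor gene E2f4. These 10 genes were read from every Affymetrix probe set whose platform annotation gave that gene's symbol and no other. Of the 10 genes, 8 had at least 1 such probe set, among 18193 genes so represented on the arrays. Hmga1 and Igf2bp2 were not analysed here, because no probe set carried their symbol in the annotation used. The other 8 genes had 39 probe sets, 27 on the MOE430A array and 12 on the MOE430B array.

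Neurospheres are balls of neural progenitors that grow unattached in culture. The labels give the ventral telencephalon of mouse forebrain at the E12.5 stage of gestation as the source. There was 1 RNA sample of wild-type neurospheres and 1 of neurospheres labelled knockout for E2f4, and each RNA was hybridised to 1 MOE430A and 1 MOE430B array. The labels name neither the mouse strain, nor how the deletion was made, nor how many embryos each RNA came from. E2F4 is a transcription factor that acts mainly as a repressor, together with pocket proteins, at genes of the cell cycle. With 1 sample per genotype there was no replicate check, so values are given without p-values or replicate errors, and no difference here is shown to belong to the genotype rather than to these cultures.

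Fetal neural stem cells change with developmental age in what they make and in how readily they divide, and these genes are known as part of that timing. LIN28A blocks the maturation of let-7 microRNAs, and let-7 in turn represses Lin28a, Hmga2 and genes of the Igf2bp family, so that these genes are high early and decline later. HMGA2 is a chromatin protein with AT-hooks that keeps fetal stem cells dividing through repression of the Ink4a/Arf locus. IGF2BP proteins bind mRNAs and guide their stability, transport and translation. Nuclear factor I proteins bind DNA as dimers and come on later, at the switch from neuron to glia production.

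The microRNAs of this timing pathway are shown because, in background knowledge, the let-7 seed ties Lin28a, Hmga2 and genes of the Igf2bp family together. These microRNAs were not measured on these arrays. The mature mouse sequences below are from RefSeq (GRCm38.p6), written 5′ to 3′, with the seed, bases 2 to 8, in capitals. The seed GAGGUAG was shared by 11 mature microRNA names of 1679 in the table, among them all 3 let-7 sequences shown, while miR-125b, another microRNA known to repress Lin28a, had the seed CCCUGAG.
let-7a-5p: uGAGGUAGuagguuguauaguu
let-7b-5p: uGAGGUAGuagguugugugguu
let-7c-5p: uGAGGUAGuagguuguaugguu
miR-125b-5p: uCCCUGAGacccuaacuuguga

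Values are MAS5 signals, brightness on a linear scale in arbitrary units, and each probe set was compared between the wild-type and the knockout array of its own design. Each log2 ratio, knockout over wild type, was centred on the median of its design, so 0 is the typical probe set, 1 is 2-fold higher in the knockout and -1 is 2-fold lower. A probe set was called measured when its signal reached a floor on both arrays. The floor, the mean of the medians of the 2 arrays of that design, was 735 on MOE430A and 942 on MOE430B. Signals of different probe sets cannot be set against each other, since each has its own affinity. In place of replicate error, each ratio is given with the central 95% of ratios of probe sets of like signal, taken from 10 equal groups of measured probe sets by mean log2 signal in that design. This range describes the arrays and is no test.

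The 2 arrays of each design had medians within 2 units of each other, and 10402 probe sets of MOE430A and 9530 of MOE430B were measured. Gapdh signal at the 3′ end over that at the 5′ end, which gauges RNA integrity, lay between 0.799 and 0.948 on the 4 arrays. E2f4 itself had 1 probe set, reading 1812 in wild-type RNA and 1535 in the RNA labelled knockout, a log2 ratio of -0.24 that lay inside the central 95% of like signal, from -0.54 to 0.58. Whether that probe set lies within the deleted part of E2f4 was not stated in the labels, so it does not check the genotype. All 13 markers of neural stem and progenitor cells were measured, among them Sox2 with signals of 7530 in wild-type and 7720 in knockout spheres and a log2 ratio of 0.04, and Vim, an intermediate filament gene of radial glia, at 0.09. Of the 13, 9 were higher in the knockout, the highest being Pax6 at 0.44 and Fabp7 at 0.26. Msi1, Slc1a3 and Hes1 were each at 0.21. The other 4 were lower, and Hes5, a Notch target, had the lowest log2 ratio, -0.86. It was followed by Sox1, whose 2 probe sets differed (-1.09 and -0.14), Notch1 at -0.11 and Nes at -0.04. Across genes with more than 1 measured probe set, the pooled SD of the log2 ratio between probe sets of 1 gene was 0.33 over 3957 genes, and it was 0.44 over the 6 timing genes that had more than 1.

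Of the 39 probe sets, 26 were measured, 2 were above the floor in 1 sample alone and 11 were below it in both. The 26 came from 7 genes, Nfia, Nfib, Nfic, Nfix, Hmga2, Igf2bp1 and Igf2bp3. On the gene level, the mean over measured probe sets, 5 of the 7 were higher in the knockout sample and 2 lower, with a median log2 ratio of 0.10. Over all 10174 measured genes, 5071 were higher and the median was -0.001. None of the 7 genes was at least 2-fold different either way, a size reached by 1.01% of all genes. Hmga2 came closest, at 1.62-fold higher.

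Single probe sets were at least 2-fold higher in 2 cases, 1 for Hmga2 on MOE430A and 1 for Nfib on MOE430B, and none was 2-fold lower. Among all measured probe sets, 0.279% were at least 2-fold higher on MOE430A and 1.48% on MOE430B, and 0.163% and 1.46% were at least 2-fold lower. Of the 26 measured probe sets, 22 lay inside the central 95% of like signal, 4 lay above it and none lay below it. The 4 belonged to Hmga2 (2 probe sets), Nfib (1) and Igf2bp1 (1). Probe sets of a gene share its RNA and are not replicates of the genotype.

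**Figure D1:**
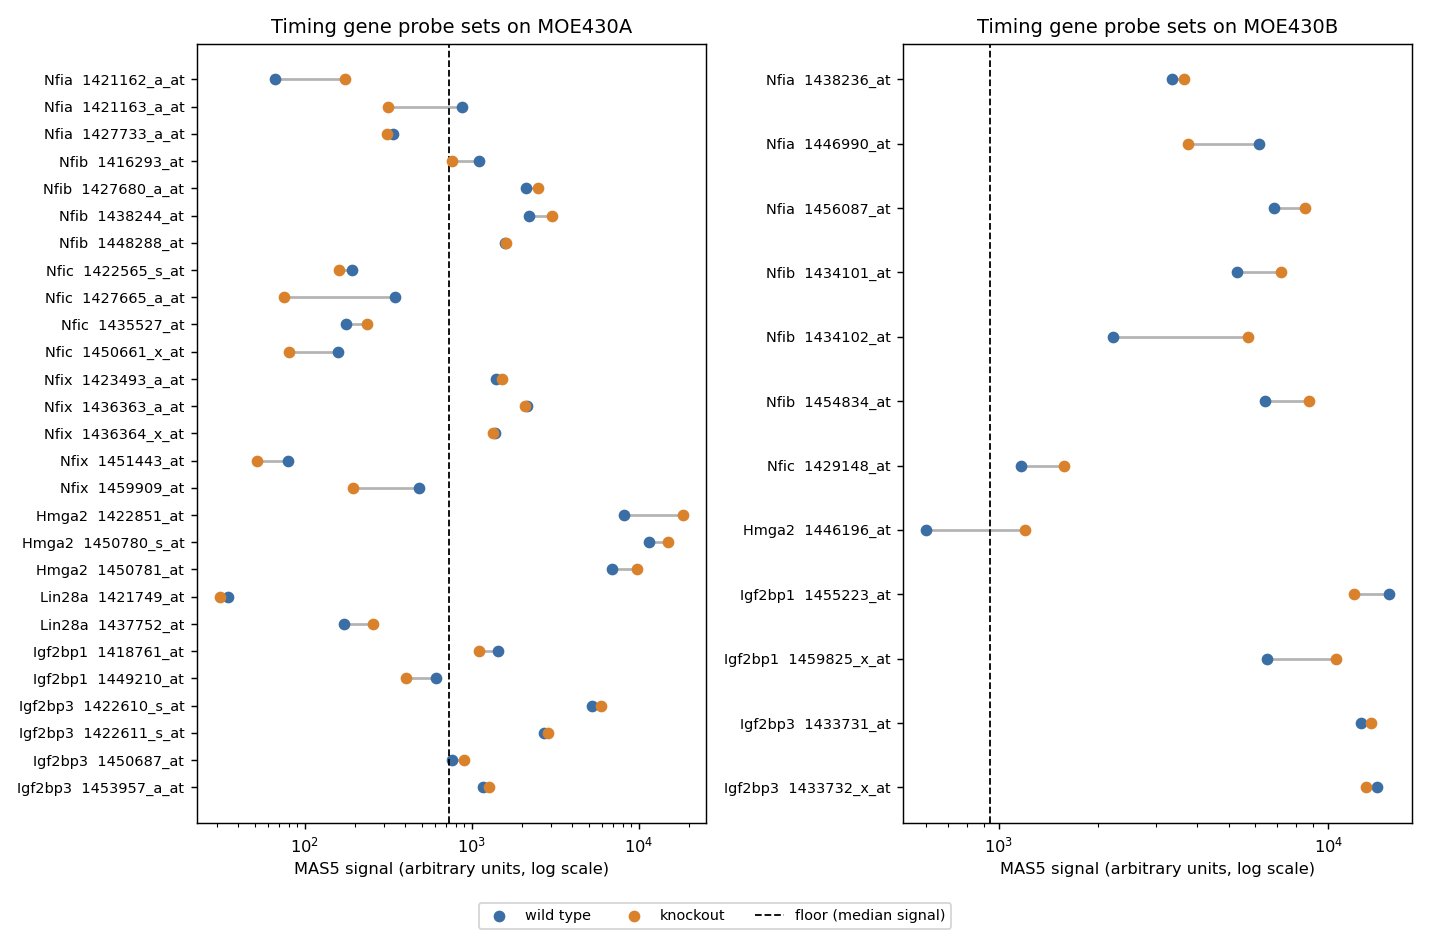
MAS5 signal (log axis, arbitrary units) of all 39 probe sets in the wild-type sample (blue) and the knockout sample (orange), with a dashed line at the floor of each design; each point is 1 array. The Hmga2 probe sets of MOE430A sit well above the floor and are higher in the knockout sample, 1 Nfib probe set on MOE430B runs from 2222 to 5714, and both Lin28a probe sets lie below the floor.

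Hmga2, the chromatin gene most tied to the youth of fetal stem cells, was higher in the knockout sample on each of its 4 probe sets. Probe set 1422851_at read 8114 in wild-type and 18438 in knockout spheres, which is 2.28-fold higher. Probe set 1450780_s_at read 11545 and 15064, or 1.31-fold higher, and 1450781_at read 6920 and 9819, or 1.42-fold higher. The direction was therefore the same on all of the MOE430A probe sets, with sizes that differed between them. The log2 ratios were 1.19, 0.39 and 0.51, and the central 95% of like signal, the brightest of the 10 groups on that array, ran from -0.35 to 0.39. The probe sets at 1.19 and 0.51 lay outside it, at percentiles 99.9 and 99.5 of 1041 probe sets, and the one at 0.39 lay just inside, at percentile 97.2.

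The Hmga2 probe set on MOE430B, 1446196_at, was below the floor in the wild type at 601 and above it in the knockout at 1201, a bound of at least 1.28-fold higher. The MOE430B arrays were hybridised on another day from MOE430A but carried the same RNAs. The shared direction is therefore no independent check of the genotype. The mean log2 ratio of Hmga2 over its measured probe sets was 0.69, and 0.39 with its brightest probe set alone. Among 1462 genes with 3 or more measured probe sets its percentile was 99.9, with the central 95% of genes running from -0.39 to 0.40. At a smaller size rule of 1.5-fold, chosen after seeing the data, Hmga2 was the 1 timing gene of 7 to pass, and 3.52% of all genes were at least that much higher.

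The region just upstream of Hmga2 is printed because this gene had the largest difference. It is the 250 bases before the annotated start in RefSeq (GRCm38.p6), at chr10:120476470-120476719 on the minus strand, 5′ to 3′ along the gene, with the 1 GC box (GGGCGG or its reverse complement) in capitals.
Hmga2: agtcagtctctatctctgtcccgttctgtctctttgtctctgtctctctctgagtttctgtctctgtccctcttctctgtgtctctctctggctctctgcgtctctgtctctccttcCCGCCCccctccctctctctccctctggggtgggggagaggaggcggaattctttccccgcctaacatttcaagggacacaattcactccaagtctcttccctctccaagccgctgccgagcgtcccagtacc
The E2F motif was searched as TTTCCCGC, TTTCGCGC, TTTGCCGC and TTTGGCGC on both strands of windows of 300 bases, 250 before and 50 after the start. It was found in 0 of 12 windows of the 8 timing genes in that table, which include Hmga1 and Igf2bp2, and in 2.26% of all 32851 windows. Nfib and Igf2bp1 were not searched here. The GC box, searched on both strands and chosen after the E2F motif, was in 7 of these 12 windows, from 6 genes. It was in 35.7% of all windows. Nfix and Hmga1 had more than 1 window each, and those of Hmga1 overlap, so the windows are not separate promoters. The letters of the GC box and of TTTCCCGC can share bases. A match is a run of letters, not a bound site, and the absence of these letters says nothing of whether E2F4 binds.

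Lin28a, the let-7 inhibitor, was below the floor in both samples on both of its probe sets. Wild-type signals were 34.5 and 171, and knockout signals 31.1 and 255. Its paralogue Lin28b had 1 probe set, also below the floor, with 80.9 in wild-type and 26.9 in knockout spheres. No fold is given for values under the floor. A difference in Lin28a or Lin28b was not detectable on these arrays, which is not a statement that the RNAs were absent.

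Igf2bp3, an oncofetal RNA-binding protein gene, was measured on all 6 of its probe sets and differed little between the samples. On MOE430A, 1422610_s_at read 5262 in wild-type and 5900 in knockout spheres, and 1422611_s_at read 2701 and 2867. On MOE430B, 1433731_at read 12579 and 13456, while 1433732_x_at was the one lower in the knockout, at 14057 and 12979. The 6 log2 ratios lay between -0.11 and 0.25 with a mean of 0.10, and all were inside the central 95% of like signal. The brightest probe set alone gave -0.11.

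Igf2bp1, whose protein binds Actb and Igf2 mRNAs and supports fetal stem cells, had probe sets that disagreed. Signals of 1418761_at were 1429 in wild-type and 1109 in knockout spheres, and those of 1455223_at were 15317 and 11942, which are log2 ratios of -0.36 on each array design. The other MOE430B probe set, 1459825_x_at, read 6503 and 10547, a log2 ratio of 0.70, above the central 95% of like signal that ended at 0.54. Names ending in _x_at mark probe sets that can also match other transcripts. Whether this one does was not tested, and Igf2bp3 and Nfix also had a measured probe set with that ending. The remaining probe set, 1449210_at, was below the floor in both samples, at 614 and 401. The mean of -0.007 thus averaged opposite ratios, and without the _x_at, _s_at and _a_at probe sets it was -0.36, or 1.28-fold lower on the brighter remaining probe set.

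Nfib, a nuclear factor I gene of the developing forebrain and glia, was higher in the knockout sample on 6 of its 7 probe sets, all of which were measured. On MOE430B, 1434101_at read 5293 in wild-type and 7204 in knockout spheres, and 1454834_at read 6421 and 8741. Probe set 1434102_at read 2222 and 5714, which is 2.57-fold higher and at percentile 99.7 of 953 probe sets of like signal. All 3 MOE430B probe sets were higher, with log2 ratios of 0.45, 0.45 and 1.36.

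On MOE430A the Nfib ratios lay on both sides of 0. Probe sets 1427680_a_at and 1438244_at had wild-type signals of 2107 and 2187 against knockout signals of 2507 and 3003, log2 ratios of 0.25 and 0.46. Probe set 1448288_at was nearly equal, at 1581 and 1595, and 1416293_at was lower, at 1099 and 764, a log2 ratio of -0.52 close to the lower end of its range at -0.54. The mean over the 7 was 0.35, within the central 95% of genes with 3 or more measured probe sets, at percentile 96.2. It was 0.05 on MOE430A alone and 0.75 on MOE430B alone. The spread between its highest and lowest probe set, 1.88, stood at percentile 99.4 of the same 1462 genes, whose median spread was 0.52.

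Nfia, which starts the switch to glia in the neural tube, was measured on its 3 MOE430B probe sets. Probe set 1456087_at read 6848 in wild-type and 8484 in knockout spheres, and 1438236_at read 3364 and 3657. Probe set 1446990_at went the other way, at 6180 and 3750, or 1.65-fold lower, near the lower end of its central 95% at -0.73. The 3 ratios, 0.31, 0.12 and -0.72, gave a mean of -0.10 and a median of 0.12, which differ in sign, and the brightest probe set alone gave 0.31. On MOE430A, 1421163_a_at passed the floor only in the wild-type sample, with 879 against 316 in the knockout, a bound of at least 1.19-fold lower, and the other 2 were below the floor in both.

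Nfix, linked to stem cell quiescence later in development, was nearly equal in the samples on its 3 measured probe sets. Signals were 1395 and 1508 for 1423493_a_at, 2137 and 2079 for 1436363_a_at and 1381 and 1342 for 1436364_x_at, wild type first. The log2 ratios lay between -0.04 and 0.11 and their mean was 0.01. The other 2 Nfix probe sets were below the floor, with signals from 51.6 to 482. Nfic, the remaining family member, was measured on 1 of 5 probe sets, 1429148_at, at 1164 in wild-type and 1577 in knockout spheres. Its log2 ratio of 0.44 was inside the wide range of dim probe sets, from -0.94 to 0.99, and its 4 probe sets on MOE430A were below the floor, none brighter than 345. With no floor, those 4 would turn its mean to -0.52.

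**Figure D2:**
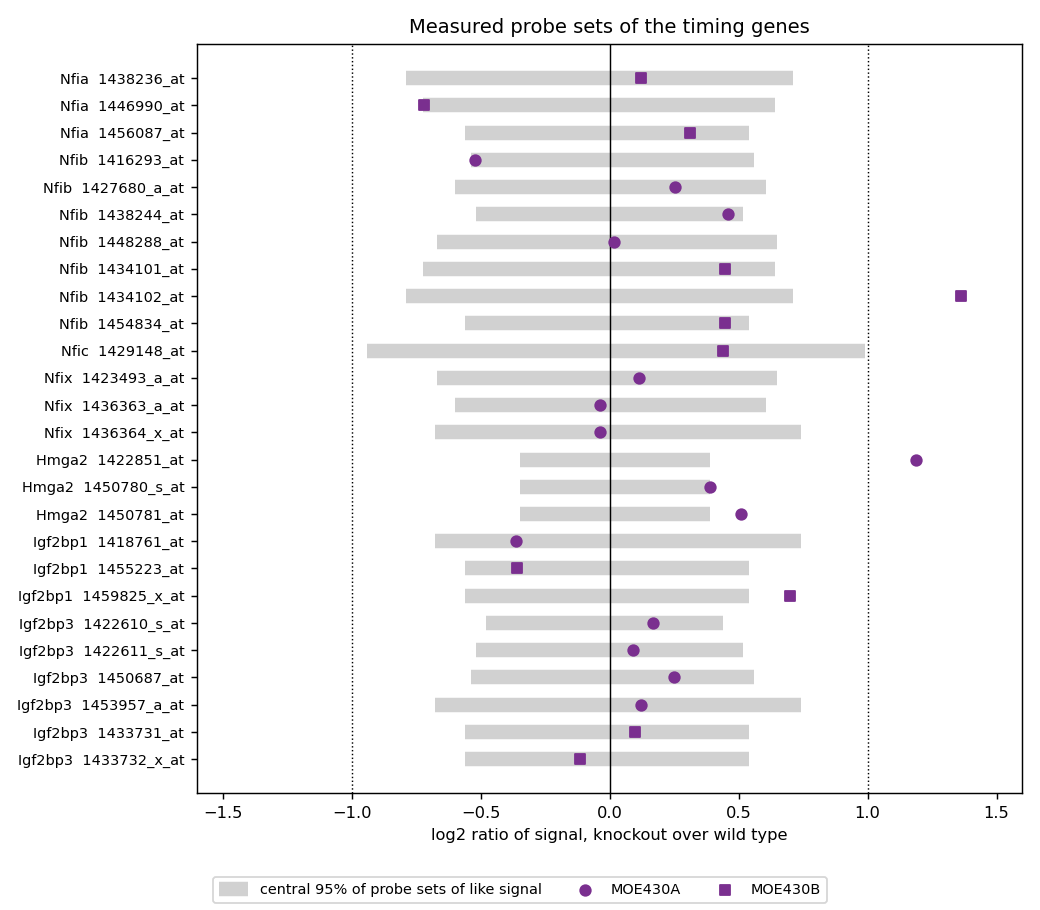
Log2 ratio of signal, knockout over wild type, of the 26 measured probe sets (circles MOE430A, squares MOE430B), with grey bars for the central 95% of probe sets of like signal and dotted lines at 2-fold. All Hmga2 points lie to the right of 0, with 1422851_at at 1.19, while Nfib, Nfia and Igf2bp1 have points on both sides.

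The order of the 7 gene values was Hmga2 at 0.69, Nfic at 0.44, Nfib at 0.35, Igf2bp3 at 0.10, Nfix at 0.01, Igf2bp1 at -0.007 and Nfia at -0.10. Every pair of neighbours in this order differed by less than the pooled SD between probe sets of 1 gene, 0.33. That SD is of single probe sets, while most of these values are means over several, so it is not their error. Neighbours in a sorted list also lie close by construction. Within families, the Nfi genes had 3 of 4 higher, Nfix by only 0.01, and a median of 0.18. The Igf2bp genes had 1 of 2 higher and a median of 0.05. Over all measured genes, 49.8% were higher. Hmga2 was the 1 measured gene of its family.

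Genes that act with these in the let-7 and Lin28 pathway differed little as a list. Of 16 measured among 21, 9 were higher in the knockout, none was 2-fold different, and the median was 0.03. Ccnd2, a G1 cyclin and let-7 target, was highest at 0.49, and its 6 measured probe sets all lay between 0.30 and 0.72. Xpo5, which exports microRNA precursors from the nucleus, was at 0.46, with 2241 in wild-type and 3438 in knockout spheres on its first probe set. Arid3a was lowest at -0.46, and the cell-cycle phosphatase gene Cdc25a was at -0.19. Mir99ahg, a long non-coding RNA gene near microRNA genes that was named after its values were seen, had probe sets at -0.26 and 0.14.

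HMGA2 is known to act through the Ink4a/Arf axis, of which 5 of the 8 genes with a probe set were measured. Cdkn2a, the locus itself, was below the floor at 236 in wild-type and 154 in knockout spheres, as were Cdkn2b, at 465 and 101, and Junb, at 302 and 288. Of the 5 measured genes of 9, 1 was higher and the median was -0.08. Rb1, the retinoblastoma gene, was lowest at -0.14, with Cdkn2c, another CDK inhibitor gene, at -0.08. Cdk4 at -0.05 and Mdm2 at 0.10 were the highest. A difference in Cdkn2a was not detectable at these signals.

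Glial and progenitor genes linked to nuclear factor I had a median of -0.10, with 6 of 15 measured genes higher and none 2-fold different. Clu was highest at 0.42, from 1 measured probe set of 4, and Fabp7, a lipid-binding protein gene of radial glia, was at 0.26, with 22783 in wild-type and 27190 in knockout spheres. Hes5, a Notch target that holds progenitors back from becoming neurons, was lowest at -0.86 from probe sets at -1.48 and -0.24. Zbtb20 was at -0.32 with 9 probe sets from -1.48 to 0.12. Gfap, the astrocyte filament gene, had no probe set that was above the floor in both samples. Its brightest signal was 664 in wild-type spheres, below the floor of either design. In knockout spheres it was 1094, above either floor.

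Other transcription and chromatin factors of progenitor timing had a median of 0.03, with 10 of 17 measured genes higher. Nr2f2 and Nr2f1, nuclear receptor genes needed for the switch from neuron to glia production, were the lowest, at -0.52 and -0.39. The 4 measured probe sets of Nr2f2 lay close together, from -0.60 to -0.47, and Nr2f1 read 4874 in wild-type and 3712 in knockout spheres on its 1 probe set. Plagl1, an imprinted zinc finger gene, was highest at 0.47 and Lhx2, a selector gene of the cortex, was at 0.36. The mRNAs and protein partners of the Igf2bp proteins had a median of 0.08, with 7 of 11 higher. They spanned the narrowest range of these lists after the Ink4a/Arf axis, from Gap43 at -0.21 and Actb at -0.05 to Elavl1 at 0.13 and Pabpc1 at 0.20.

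**Figure D3:**
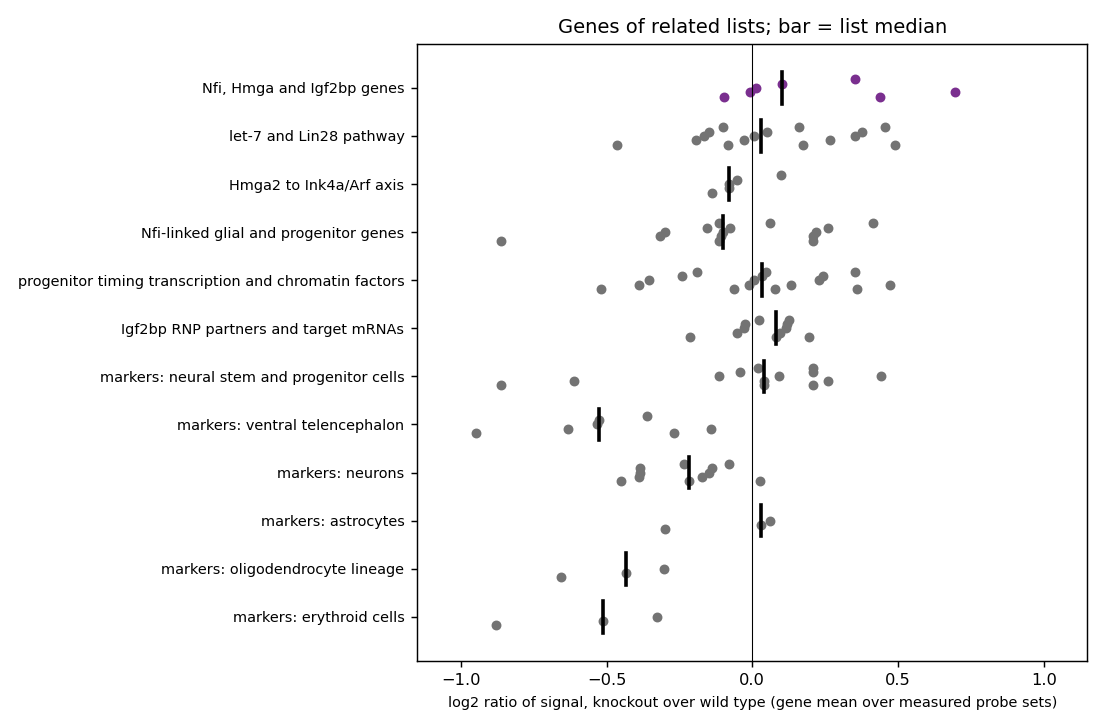
Log2 ratio of knockout over wild type for each measured gene (1 point per gene, mean over its measured probe sets), by gene list, with a bar at the list median; marker lists with at most 2 measured genes are not drawn. The timing genes reach from -0.10 to 0.69, the pathway lists centre near 0, and the ventral telencephalon and neuron markers lie mostly below 0.

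Markers of neurons and of the ventral telencephalon differed between the samples beside these values. All 7 measured markers of the ventral telencephalon were lower in knockout spheres. Their median was -0.52, and their summed signal was 21930 in wild-type and 16081 in knockout spheres on MOE430A. Dlx1, Dlx2 and Gad2 were the brightest, at -0.27, -0.52 and -0.63. Of 11 neuron markers, 10 were lower, with a median of -0.22 and a summed signal of 154519 and 135113 on MOE430A; Tubb3 was at 0.03, Stmn2 at -0.15 and Dcx at -0.08. Neural stem and progenitor markers had a median of 0.04, with 9 of 13 higher and a summed signal of 164236 and 172061. In such bulk RNA, fewer cells of a type and less RNA per cell cannot be told apart, and the part of cell makeup in the Hmga2 and Nfib values was not tested.

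Glial and non-neural markers were few above the floor, but those measured in the erythroid list included signals far above it. Of 6 astrocyte markers, 3 were measured, with a median of 0.03 and a summed signal on MOE430B of 10195 in wild-type and 11600 in knockout spheres, and Aldh1l1 and Gfap were not among them. Oligodendrocyte lineage markers were measured for 3 of 7 genes with probe sets, all lower with a median of -0.43, and their summed signal on MOE430A was 3751 and 2720. The sums given next are also of MOE430A, wild type first. Microglia markers had 2 of 6 measured and a summed signal of 5950 and 4741, endothelial markers 2 of 6 with 2796 and 2985, and mesenchymal markers 1 of 6 with 974 and 1045. Erythroid markers had 3 of 5 measured, all lower embryonic globin genes, with a summed signal of 278732 and 214562. Hbb-y, the brightest, read 89828 and 69939 on its first measured probe set and had a log2 ratio of -0.33. Hba-x was at -0.51 and Hbb-bh1 at -0.88.

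**Figure D4:**
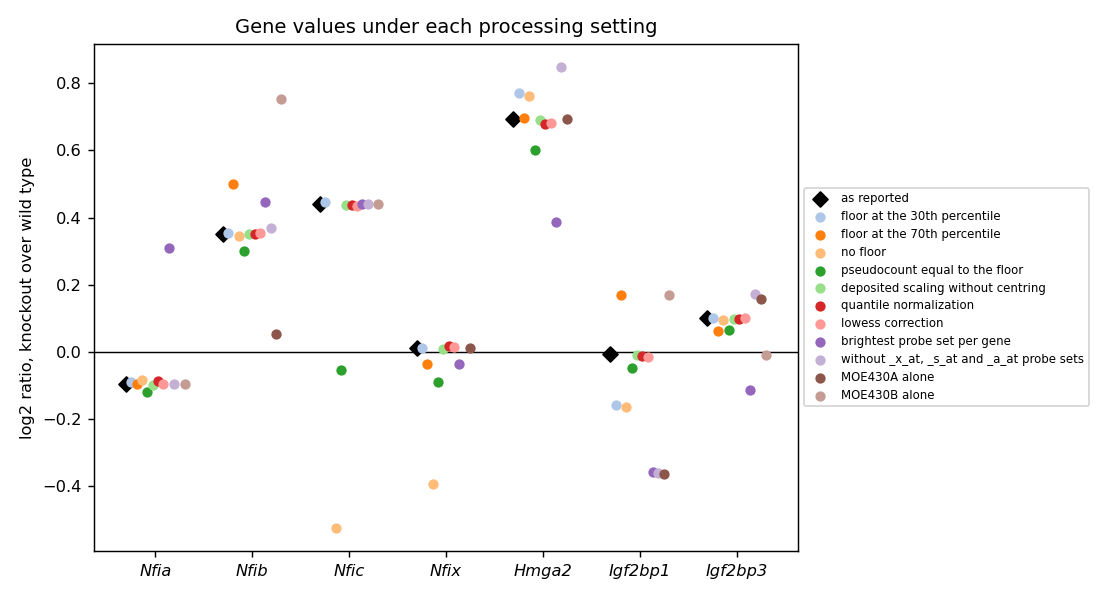
Log2 ratio of knockout over wild type of the 7 measured timing genes (horizontal axis) as reported (black diamonds) and under each of 11 other processing settings (coloured circles); a setting that leaves a gene without a measured probe set has no circle. Hmga2 stayed between 0.39 and 0.85 and Nfib between 0.05 and 0.75, while Nfia, Nfic, Nfix, Igf2bp1 and Igf2bp3 have circles on both sides of 0.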

How the data were processed

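Total RNA from 1 wild-type and 1 E2f4 knockout neurosphere sample was extracted with RNeasy columns and labelled with biotin without amplification, per the labels' protocols. The deposited values are MAS5 signal on a linear scale, per the submitters' processing notes, which name no version. The values show that the authors scaled each array to a 2% trimmed mean between 1480 and 1482. Wild-type and knockout arrays of 1 design shared their hybridisation day, per the file headers, while MOE430A and MOE430B were run on 2 different days, so each ratio lies within 1 day.

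Control probe sets were left out, 64 per design. The floor was the mean of the 2 array medians, and the centring shift was -0.003 log2 on MOE430A and -0.001 on MOE430B. A gene's value was the mean log2 ratio over measured probe sets of either design. Gene symbols came from the platform annotation through gene identifiers in a RefSeq table (GRCm38.p6). All timing genes were named with every probe set; of each pathway list, the 2 highest and 2 lowest measured genes were named, and of each marker list up to 3 of the brightest. Further genes were named after their values were seen. Members and lists were chosen with earlier results of these data known. The procedure was tested on simulated arrays with planted changes larger than that of any timing gene. That test therefore does not check differences of the size reported here. Arrays limit the precision by their number. Python 3.11.15, numpy 2.4.6, pandas 2.3.3, statsmodels 0.14.6 and matplotlib 3.10.9 were used.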

Additional observations from a re-analysis of the deposited data

How the results depend on the processing

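Results were recomputed with a floor at the 30th or the 70th percentile, none at all, adding the floor to every signal as a pseudocount, no centring, quantile or lowess (span 0.3) normalization, the brightest probe set of a gene only, no _x_at, _s_at or _a_at probe sets, and either design alone. The median of the timing genes stayed above 0, between 0.005 and 0.31, and no timing gene reached 2-fold under any of them. Hmga2 kept its direction in 10 of 10 alternatives that gave a value and Nfib in 11 of 11, from 0.39 to 0.85 and from 0.05 to 0.75. All Hmga2 probe sets were higher in the knockout, so choosing among them could not turn its direction. Every setting reads the same RNAs, so these counts are no check of the genotype. Nfia turned to 0.31 with the brightest probe set, and Nfic to -0.52 with no floor and -0.05 with a pseudocount. Igf2bp1 turned to 0.17 with the higher floor or on MOE430B alone. It moved further in the other direction, to -0.36, on MOE430A alone. Igf2bp1 was also at -0.36 when a gene was read from its brightest probe set, and when probe sets were dropped by name ending. Nfix was at -0.39 with no floor, and Igf2bp3 at -0.11 with the brightest probe set. The number of timing genes higher, 5 of 7, was 4 of 8 with no floor or with a pseudocount, 4 of 7 with the brightest probe set and 3 of 5 on MOE430B alone. The counts of all genes at least 2-fold higher and lower, 54 and 49, became 215 and 246 with the floor at the 30th percentile, 17 and 16 at the 70th, 1635 and 1547 with no floor, 11 and 9 on MOE430A alone, and 54 and 53 on MOE430B alone. With a 1.5-fold rule, chosen after seeing the data, they were 358 and 393, and 1 timing gene was higher. No paired analysis was possible because each genotype has 1 RNA sample.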
